A study of Mus musculus with 10 samples.

Results

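The immediate early transcription factors examined here were Nr4a1, Egr1, Egr2, Egr3, Fos, Jun, Junb and Npas4, in the forebrain of newborn mice without the neuronal RNA-binding proteins ELAVL3 and ELAVL4. They are 8 of the 10 genes looked for by symbol, and 8 of the 13534 genes that a single symbol of the platform annotation names. Fosb and Nr4a3 are not analysed here. The genes were chosen by name after the same arrays had been seen to give lower values for immediate early genes in the double knockout. The difference between the genotypes is therefore described for them and not tested.

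Expression was measured on exon arrays, 1 array per animal, in 5 animals labelled Elavl3-/-;Elavl4-/- (DKO) and 5 animals labelled wild-type (WT). All were pups of postnatal day 0 with a mixed C57BL/6 and CD-1 background, and the whole forebrain was dissected. The deposited labels describe 5 littermate pairs and do not state which animals are littermates. Replicates were numbered in accession order, which gives each animal a name and nothing more. The animals' own numbers run from 685 to 806 in 2 animals of each genotype and from 1145 to 1207 in the other 3 of each. What separates these number ranges is not stated.

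Immediate early genes are switched on in neurons within minutes of synaptic activity, growth factor signalling or stress, without the need for new protein. Calcium and kinase signals reach factors already bound at their promoters, among them CREB and the serum response factor, and the resulting mRNAs are short-lived. Many of their products are transcription factors that in turn control later genes. ELAV-like proteins bind U-rich stretches of mRNA, and transcripts of several immediate early genes carry such stretches.

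Elavl3 was 6.03 ± 0.54 in DKO and 11.11 ± 0.34 in WT forebrain (log2 values, SD, n = 5 each; limma's adjusted p = 3.15e-05), and Elavl4 was 6.26 ± 0.25 in DKO and 7.58 ± 0.13 in WT (limma's adjusted p = 0.013). All DKO values of either gene lay below all WT values. Where these probe sets lie relative to the deleted parts is not stated. Array medians over all probe sets lay between 5.05 and 5.24. WT replicate 4 stood apart from the rest, with correlations of 0.933 to 0.946 with the other arrays, and values without it are given beside the results that rest on it. Of 10 listed forebrain markers 8 were measured, and their mean level was 8.72 to 8.98 in DKO and 8.72 to 8.9 in WT arrays. The 3 measured hindbrain and spinal cord genes of 8 averaged 4.83 to 4.98 in DKO and 4.88 to 5.29 in WT arrays, the highest being WT replicate 4.

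Promoters of 5 of the genes are shown because each holds a short motif known from activity-regulated promoters; they were chosen for that match. Each window holds 250 bases before and 50 bases after a transcript start of RefSeq in build GRCm38.p6, read 5′ to 3′ on the strand of the gene. Capitals mark TGACG, the core of a site for CREB and related factors, on either strand (read as CGTCA where it lies on the opposite strand), and in Egr2 also a CArG box, the site of the serum response factor. For Egr2, which has 5 listed windows, the window with the most marked matches is printed.
Nr4a1, chr15:101266596-101266895, strand +: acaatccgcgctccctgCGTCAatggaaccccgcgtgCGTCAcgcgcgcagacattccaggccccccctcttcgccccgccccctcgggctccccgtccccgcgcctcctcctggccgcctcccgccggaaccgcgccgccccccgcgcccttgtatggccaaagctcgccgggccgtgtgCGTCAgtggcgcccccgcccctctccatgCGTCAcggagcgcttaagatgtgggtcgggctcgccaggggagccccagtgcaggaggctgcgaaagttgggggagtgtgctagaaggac
Egr2, chr10:67537619-67537918, strand +: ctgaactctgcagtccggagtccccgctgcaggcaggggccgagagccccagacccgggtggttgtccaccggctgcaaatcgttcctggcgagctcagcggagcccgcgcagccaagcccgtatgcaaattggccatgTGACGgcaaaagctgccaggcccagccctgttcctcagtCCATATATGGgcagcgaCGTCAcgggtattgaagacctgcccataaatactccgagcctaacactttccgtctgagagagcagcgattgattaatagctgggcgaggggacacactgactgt
Junb, chr8:84978699-84978998, strand -: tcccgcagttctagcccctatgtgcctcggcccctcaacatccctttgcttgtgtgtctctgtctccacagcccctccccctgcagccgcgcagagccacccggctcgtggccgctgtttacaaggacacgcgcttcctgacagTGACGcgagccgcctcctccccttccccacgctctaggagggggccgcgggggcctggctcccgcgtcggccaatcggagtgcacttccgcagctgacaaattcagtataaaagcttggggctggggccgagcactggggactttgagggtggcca
Fos, chr12:85473640-85473939, strand +: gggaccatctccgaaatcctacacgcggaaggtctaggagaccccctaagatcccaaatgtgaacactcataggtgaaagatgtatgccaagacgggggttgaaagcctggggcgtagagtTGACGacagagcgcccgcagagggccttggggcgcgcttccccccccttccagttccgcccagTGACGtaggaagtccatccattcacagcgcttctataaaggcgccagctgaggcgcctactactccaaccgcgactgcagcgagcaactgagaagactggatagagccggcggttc
Npas4, chr19:4989922-4990221, strand -: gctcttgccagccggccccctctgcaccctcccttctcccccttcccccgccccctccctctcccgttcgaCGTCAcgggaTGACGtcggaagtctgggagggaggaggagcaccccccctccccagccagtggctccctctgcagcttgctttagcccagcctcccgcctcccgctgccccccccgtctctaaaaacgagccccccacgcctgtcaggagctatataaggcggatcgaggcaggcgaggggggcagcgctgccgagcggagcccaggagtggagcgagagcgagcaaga

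TGACG or its complement was found in at least 1 window of 5 of the 6 members for which a promoter window was used, and of 23.0% of the 27025 genes in the table, or 20.8% of its 32851 windows. Egr1, left out of the search, and Egr3, for which no window was available, are not covered by these counts. Egr2 held it in 3 of its 5 windows. In Nr4a1 it occurred 4 times, beginning 233, 213, 69 and 40 bases before the start, each time on the opposite strand. Fos held it 129 and 66 bases before the start, Npas4 179 and 169 bases before, and Junb 106 bases before. The CArG box lay in 4 of the 5 windows of Egr2, most of which overlap, and in 1.63% of all windows, or in at least 1 window of 1.81% of the genes. The Jun window held neither motif, and the 7-base AP-1 site (TGACTCA or TGAGTCA) was in none of the 6 genes' windows and in 5.2% of all windows. TGACG contains a CpG, and the printed windows are rich in G and C, with 72.3% in Nr4a1, 69.3% in Npas4, 65.3% in Junb, 60.0% in Egr2 and 58.7% in Fos, against a median of 52.7% over all windows.

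Every member had a lower mean in DKO than in WT forebrain, by 0.09 to 0.36 on the log2 scale, with a median difference of -0.21, which became -0.11 without WT replicate 5. Over all 13534 named genes the median was -0.03, and 60.4% lay below 0. None of the 8 genes was called by limma at an adjusted p under 0.05 over 65529 probe sets, where 5 probe sets (0.00763%) were called, and 2 of the 8 had an unadjusted p under 0.05, as did 4040 of all probe sets. Since the genes were selected on this contrast, nothing is read from these counts. Between the animals of nearest number, of which there are 5 DKO and WT pairs, Nr4a1, Egr1, Jun and Junb were lower in DKO in 5 of 5 pairs, as were 7.05% of all named genes. Egr3 was lower in 4 pairs, Egr2 and Npas4 in 3 and Fos in 2, and whether these animals are littermates is not stated. In whole tissue, fewer cells that express a gene and less RNA per cell cannot be told apart.

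Nr4a1 encodes an orphan nuclear receptor that is induced by activity and by stress, and was read by probe set 6833311 (chromosome 15). It measured 6.7, 6.64, 6.67, 6.81 and 6.82 in DKO replicates 1 to 5, against 6.84, 6.88, 6.84, 7.27 and 7.46 in WT replicates 1 to 5. All 5 DKO values lay below all 5 WT values, although the highest DKO and the lowest WT animal were only just apart, and WT replicates 4 and 5 stood well above the other 3. Nr4a1 was the only member whose groups did not overlap in this way, which was the case for 0.754% of all named genes. The means were 6.73 ± 0.08 in DKO and 7.06 ± 0.29 in WT (SD, n = 5 each), a difference of -0.33 (SE 0.14). Without WT replicate 5 the difference was -0.23, and without WT replicate 4 it was -0.28.

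The early growth response genes encode zinc finger factors that bind GC-rich sites. Egr1, the member induced most widely in the brain, was read by probe set 6859972 (chromosome 18) at 7.48, 7.65, 7.43, 7.31 and 7.45 in DKO replicates 1 to 5, against 7.66, 7.64, 7.42, 7.65 and 8.12 in WT replicates 1 to 5. WT replicate 5 was far above all other animals, and the remaining values of both genotypes overlapped. The difference in means was -0.23 (SE 0.14), and -0.13 without WT replicate 5. Egr2, also a regulator of hindbrain segments and of Schwann cell myelination, was read by probe set 6768479 (chromosome 10). It measured 5.54, 5.55, 5.43, 5.66 and 5.67 in DKO animals, against 5.51, 5.71, 5.51, 5.86 and 5.99 in WT animals. WT replicates 1 and 3 lay inside the DKO range, and WT replicates 2, 4 and 5 lay above it. Its difference was -0.15 (SE 0.12), and -0.08 without WT replicate 5. Egr3, a late-peaking member of the family (probe set 6820055, chromosome 14), varied least, from 6.67 to 6.85 in DKO and from 6.62 to 6.93 in WT animals, with a difference of -0.09 (SE 0.1) and the lowest value of all arrays in WT replicate 2.

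Fos, Jun and Junb encode subunits of AP-1, a dimer of basic leucine zipper proteins in which FOS pairs with a JUN protein. Fos (probe set 6796691, chromosome 12) measured 6.42, 6.64, 6.52, 6.24 and 6.23 in DKO animals, against 6.56, 6.46, 6.12, 6.86 and 7.03 in WT animals. WT replicate 3 had the lowest value of all and WT replicates 4 and 5 the highest. The difference of -0.2 (SE 0.17) became -0.09 without WT replicate 5 and -0.13 without WT replicate 4. Jun (probe set 6923411, chromosome 4) measured 8.76, 8.47, 8.55, 8.81 and 8.96 in DKO animals, against 8.82, 8.74, 9.03, 9.0 and 9.34 in WT animals. DKO replicates 2 and 3 were below every WT animal and the other 3 lay within the WT range. Its difference was -0.28 (SE 0.14), and -0.19 without WT replicate 5.

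Junb (probe set 6983894, chromosome 8), whose protein acts in several settings as a weaker or opposing partner to that of Jun, measured 5.57, 5.5, 5.55, 5.7 and 5.62 in DKO animals, against 5.67, 5.75, 5.78, 6.5 and 6.06 in WT animals. Of the 5 DKO values 4 lay below the lowest WT value, and DKO replicate 4 lay just above it. The DKO animals spanned a narrow range, and WT replicate 4 was far above the rest. The means were 5.59 ± 0.08 in DKO and 5.95 ± 0.34 in WT (SD, n = 5 each), a difference of -0.36 (SE 0.16), which became -0.23 without WT replicate 4. Junb and Egr2 had the lowest means of the members, all below the mean of 6.03 that Elavl3 gave in DKO arrays. Array medians over all probe sets were 5.05 to 5.24, and how much of such low values is background was not tested.

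Npas4 encodes a basic helix-loop-helix factor that in neurons responds chiefly to calcium entry. Its probe set 6871062 (chromosome 19) measured 6.76, 6.88, 6.8, 6.39 and 6.64 in DKO animals, against 6.96, 6.72, 6.65, 6.57 and 7.18 in WT animals. The genotypes overlapped over most of their range, and the median was higher in DKO (6.76) than in WT (6.72) while the mean was lower (6.69 ± 0.19 in DKO and 6.82 ± 0.25 in WT, SD, n = 5 each). The difference of -0.12 (SE 0.14) became -0.03 without WT replicate 5. WT replicate 4, high for Nr4a1, Fos and Junb, had the lowest Npas4 value of the WT animals.

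**Figure D1:**
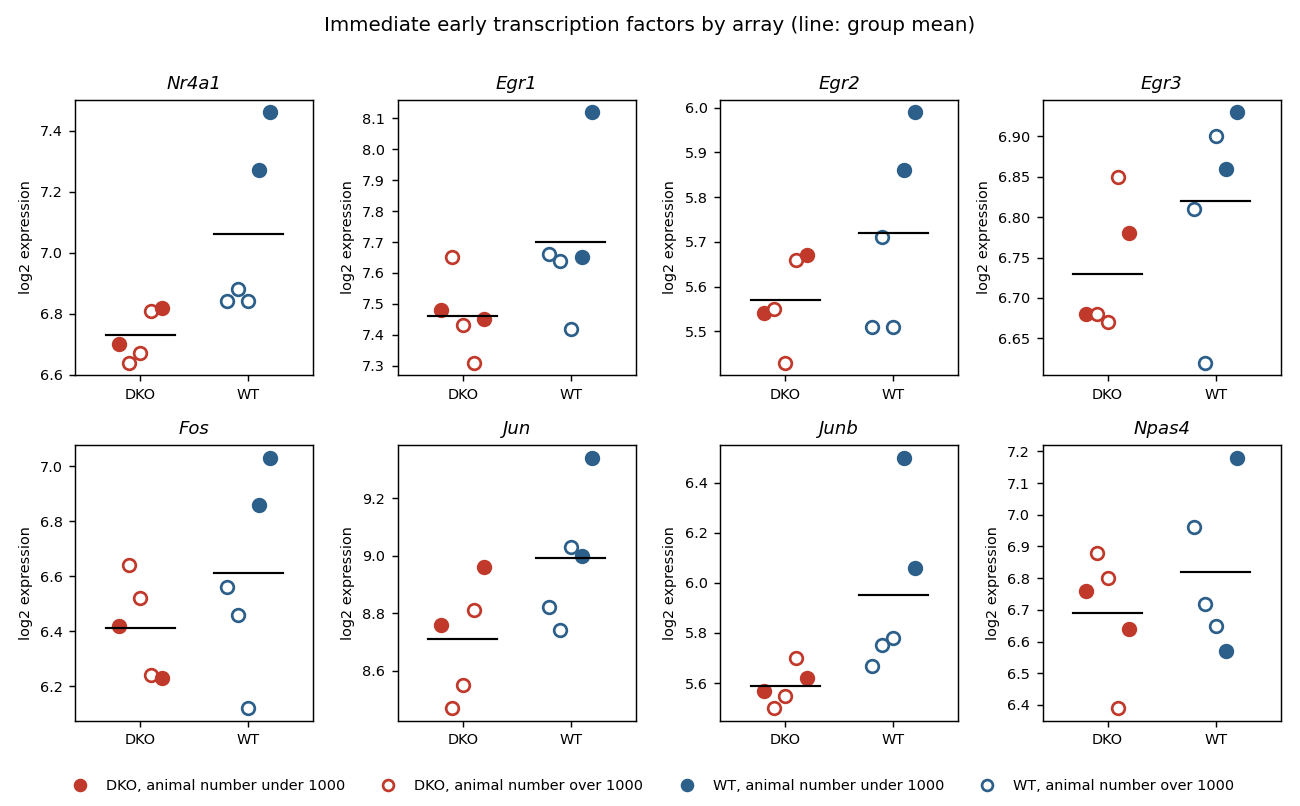
Deposited log2 expression of the 8 genes in each array, DKO animals on the left of each panel and WT animals on the right, with a line at the mean of each genotype and filled points for animals numbered under 1000. The vertical axes differ between panels and do not start at 0; WT replicate 5 is the highest array for 7 of the 8 genes, and WT replicate 4 for Junb.

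In all 10 arrays the WT animals spread more widely than the DKO animals, and this rested on WT replicates 4 and 5. The SD over WT animals exceeded that over DKO animals for all 8 genes, with a median ratio of 2.04 and the highest ratios in Junb (4.47) and Nr4a1 (3.51). For all named genes the median ratio was 1.24, and it was above 1 in 65.4% of them. Without WT replicates 4 and 5 the members' median ratio was 0.97, with 4 of 8 above 1, and that of all named genes 0.956. Without WT replicate 4 alone it was 2.17 for the members (2.24 for Junb) and 1.0 for all named genes, and without WT replicate 5 alone 1.63 and 1.28. WT replicate 5 (animal 803) was above the WT mean for 8 of 8 genes and WT replicate 4 (animal 688) for 6 of 8. These are the 2 WT animals with numbers under 1000.

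The genotype difference was therefore also taken within each range of animal numbers. Among animals numbered under 1000 (2 DKO and 2 WT) the members' median difference was -0.37, with a range of -0.68 to -0.16, against a median of -0.04 over all named genes. Without WT replicate 5 it was -0.22. Among animals numbered over 1000 (3 DKO and 3 WT) it was -0.1, with a range of -0.25 to 0.09, against -0.03 over all named genes. Without WT replicate 1 it was -0.06. Junb was 5.6 in DKO and 6.28 in WT animals under 1000, and 5.58 in DKO and 5.73 in WT animals over 1000. Nr4a1 was 6.76 in DKO and 7.37 in WT animals under 1000, and 6.71 in DKO and 6.85 in WT animals over 1000. For Fos the difference was -0.62 under 1000 and 0.09 over 1000, so that its direction was not shared by the ranges.

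Jun was the member whose difference was most alike in the ranges, at -0.31 under 1000 and -0.25 over 1000. For Egr1 the values were -0.42 and -0.11, for Egr2 -0.32 and -0.03, for Egr3 -0.16 and -0.04, and for Npas4 -0.18 and -0.09, in the same order of ranges. DKO values lay below WT values without overlap for 7 of 8 genes under 1000, as for 26.2% of all named genes, and for 1 of 8 over 1000, as for 5.58% of all named genes. That gene was Nr4a1. Whether the difference between the ranges exceeds the spread of animals was not tested, with 2 and 3 animals of a genotype in each.

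**Figure D2:**
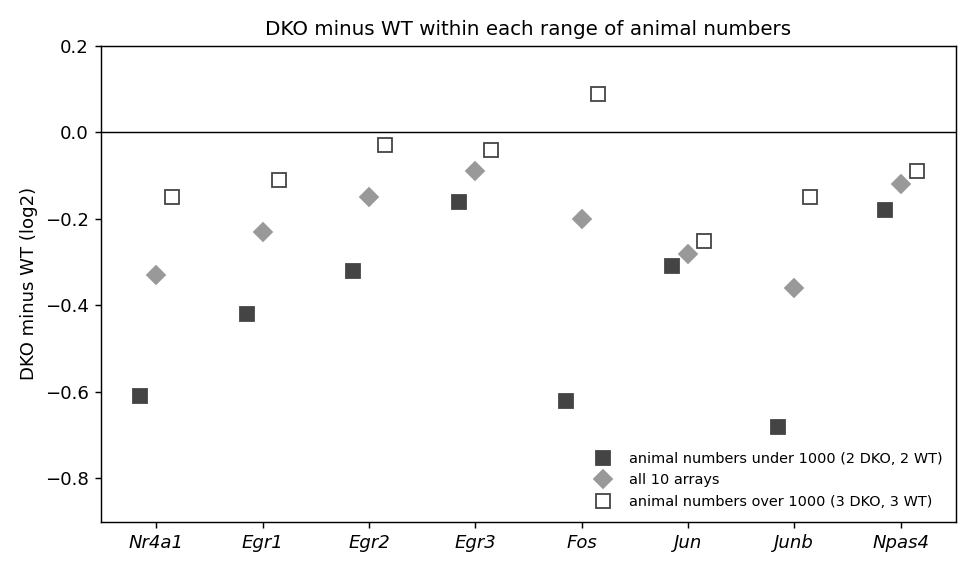
Difference between the DKO and WT means (vertical axis, log2) for each gene, among animals numbered under 1000 (filled squares), in all 10 arrays (diamonds) and among animals numbered over 1000 (open squares). Differences lie between -0.68 and -0.16 under 1000 and between -0.25 and 0.09 over 1000.

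The means of the number ranges were further apart in WT than in DKO animals, a contrast that was not tested. In DKO forebrain the animals under 1000 minus those over 1000 gave -0.14 (Fos) to 0.25 (Jun), with a median of 0.01. In WT forebrain the animals under 1000 were higher than those over 1000 for all 8 genes, by 0.1 (Npas4) to 0.57 (Fos), with a median of 0.33. The median over all named genes was 0.0 in either genotype. In a limma fit with genotype and number range as terms, the range term called 1 of 65529 probe sets (0.00153%) and 0 of the 8 members, with adjusted p from 0.588 (Nr4a1) to 0.943 (Npas4), and 2 members had an unadjusted p under 0.05, as did 5419 of all probe sets.

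The coupling of the genes was measured as the correlation of their values after each genotype's mean had been subtracted, over the 10 arrays. The difference between the genotype means does not enter, but the deviations of single arrays do. The members' median difference was -0.1 without WT replicates 4 and 5, whose deviations remain after centring. The choice of genes may therefore still bear on the correlations and their p-values. The median Pearson r over the 28 pairs of members was 0.51, and 25 of 28 pairs lay above 0. Over all pairs of named genes, which share these 10 arrays, the median was 0.05 and 53.6% lay above 0. An r of at least 0.5 was found in 14 of the 28 pairs and in 17.5% of all pairs. Correlations within a single genotype, with 5 arrays each, were not computed.

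By Pearson's r, Nr4a1 and Egr2 were the closest pair, with r = 0.92 and Spearman's rho = 0.89 (two-sided exact permutation test within genotypes, p = 0.000972 for r and 0.00681 for rho, adjusted over the 28 pairs 0.0272 and 0.0788). Of all pairs of named genes 0.282% were as high. That share is for single pairs, whereas this pair is the highest of 28. Egr2 had the lowest means of the members, at 5.57 in DKO and 5.72 in WT, and the part of background in them was not tested. Without WT replicates 4 and 5, the arrays farthest from the median of Nr4a1, their r was 0.76, and centred within genotype and number range it was 0.75. By the adjusted p of r, no other pair passed. The permutations exchanged animals across the number ranges, so a shift shared by a range can enter these p-values. For correlations centred within genotype and number range no p was computed. Egr1 and Npas4 had r = 0.82 and rho = 0.83 (exact permutation p = 0.00521 and 0.00438, adjusted 0.0729 and 0.0788), and r = 0.71 without WT replicates 3 and 5, the arrays farthest from the median of Egr1. Centred within genotype and number range, their r was 0.9.

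Egr1 and Fos had r = 0.84 and rho = 0.65 (exact permutation p = 0.00986 and 0.0322, adjusted 0.0788 and 0.173), and r = 0.61 without WT replicates 3 and 5, and 0.79 within genotype and number range. Nr4a1 and Junb had r = 0.76 and rho = 0.92 (exact permutation p = 0.0511 and 0.00847, adjusted 0.239 and 0.0788), and r = 0.81 without WT replicates 4 and 5. This was the closest pair by rho, but its r turned to -0.26 when centred within genotype and number range. Egr3 and Jun had r = 0.77 and rho = 0.78 (exact permutation p = 0.0201 and 0.0112, adjusted 0.113 and 0.0788), and r = 0.88 without DKO replicate 4 and WT replicate 2, and 0.84 within genotype and number range. Npas4 was the least coupled member, with a median r of 0.05 to the other 7, against 0.65 for Nr4a1.

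The overall coupling rested on WT replicates 4 and 5. Without WT replicate 5 the median r over the 28 pairs was 0.31, and without WT replicate 4 it was 0.57. Without both it was -0.19, with 12 of 28 pairs above 0, against a median of 0.06 and 54.5% above 0 over all pairs of named genes. Centred within genotype and number range, all 10 arrays gave a median of -0.07.

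In the 8 other arrays the genes fell into sets that ran against each other, a grouping made after the values were seen and given as a description with no test. Within Fos, Egr1 and Npas4 the 3 correlations were 0.81 to 0.86. Within Nr4a1, Egr2, Egr3, Jun and Junb the 10 correlations had a median of 0.62 and 9 were above 0. Between the sets all 15 lay below 0, from -0.99 (Junb and Npas4) to -0.02 (Egr1 and Egr2), with a median of -0.68. In all 10 arrays the same 15 ran from -0.33 to 0.65, with a median of 0.14. Centred within genotype and number range, the first set kept correlations of 0.79 to 0.9, the second had a median of 0.22 with 7 of 10 above 0, and 3 of the 15 pairs between the sets were above 0, with a median of -0.23.

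**Figure D3:**
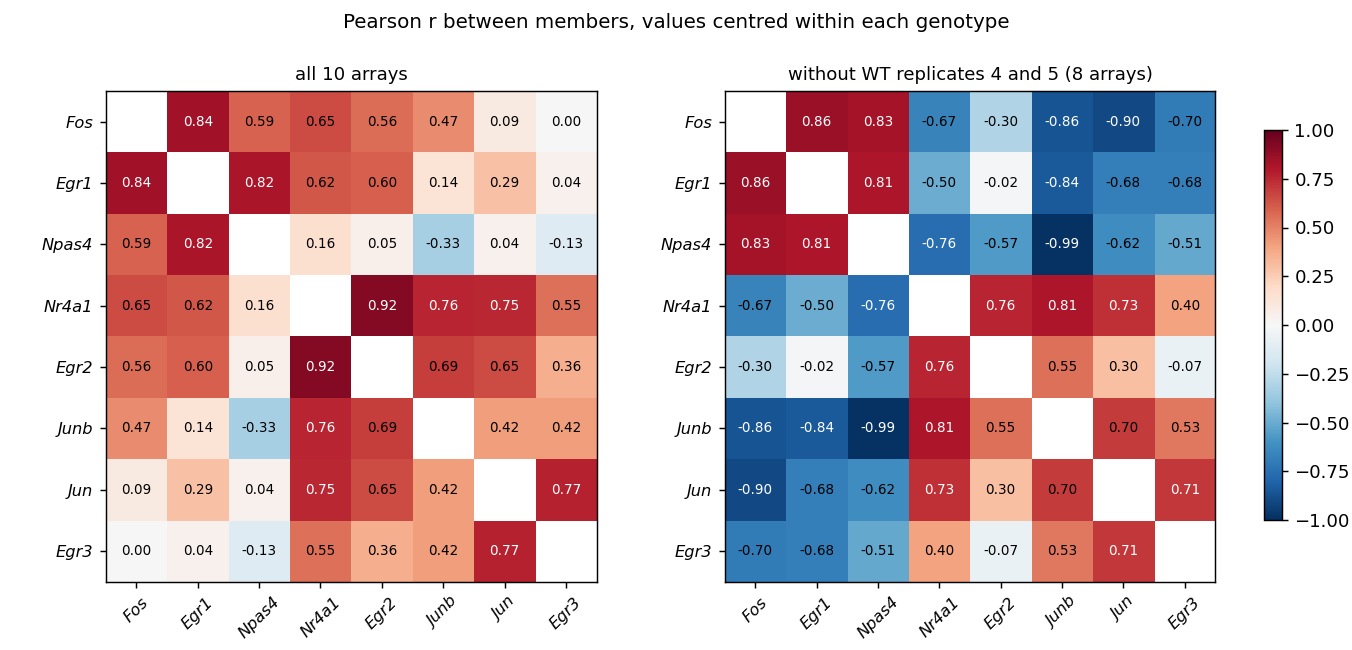
Pearson r (colour scale from -1 to 1, printed in each cell) between the 8 genes after subtraction of each genotype's mean, in all 10 arrays on the left and without WT replicates 4 and 5 on the right. On the left 25 of 28 pairs are above 0; on the right Fos, Egr1 and Npas4 correlate with each other at 0.81 to 0.86, and every one of their correlations with the other 5 genes is below 0.

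By animal, the mean deviation of Fos, Egr1 and Npas4 from the genotype mean was 0.03, 0.2, 0.06, -0.21 and -0.08 in DKO replicates 1 to 5, and 0.02, -0.1, -0.31, -0.01 and 0.4 in WT replicates 1 to 5. That of Nr4a1, Egr2, Egr3, Jun and Junb was -0.02, -0.1, -0.09, 0.1 and 0.1 in DKO replicates 1 to 5, and -0.18, -0.17, -0.1, 0.19 and 0.25 in WT replicates 1 to 5. WT replicate 5 (animal 803) was high in both sets, whereas WT replicate 4 (animal 688) was high only in the second. The animals with the lowest deviations of Fos, Egr1 and Npas4 were 1203 (DKO) and 1207 (WT), whose numbers lie close together. The highest deviation after that of 803 was in 1147 (DKO). Among other animals of close number, 803 and 806 were at 0.4 and 0.03, and 1147 and 1145 at 0.2 and 0.02. Animals 1152 and 1150 were at 0.06 and -0.1, and 685 and 688 at -0.08 and -0.01. Whether animals of close number are littermates is not stated.

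**Figure D4:**
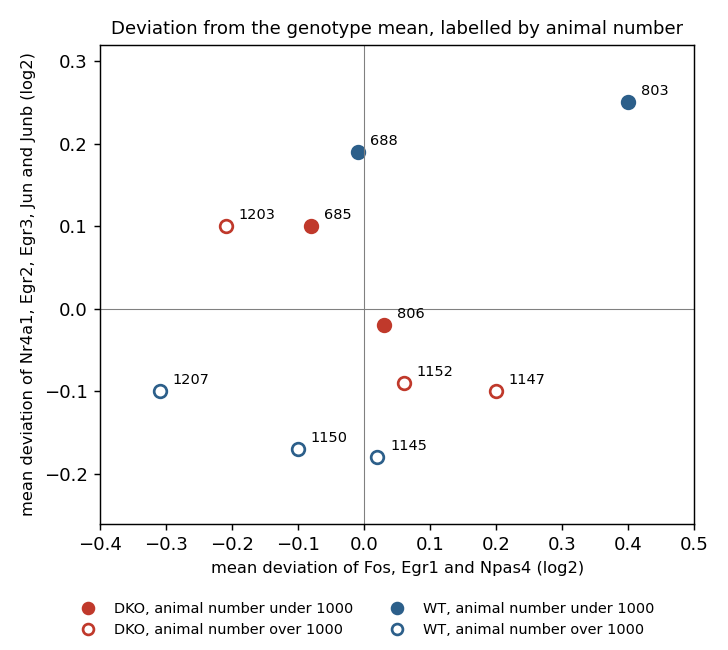
Mean deviation from the genotype mean (log2) of Fos, Egr1 and Npas4 (horizontal axis) against that of Nr4a1, Egr2, Egr3, Jun and Junb (vertical axis), 1 point per animal, labelled by animal number. The WT animals 803 and 688 are the 2 highest on the vertical axis at 0.25 and 0.19, and only 803 is also high on the horizontal axis, at 0.4.

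Other genes were ranked by their correlation with the members' mean deviation, among 6454 named genes of at least median level. The closest were Rab6b (r = 0.95 over 10 arrays), a neuronal Rab GTPase of vesicle transport, Tspan17 (0.89), a tetraspanin, and Sdc1 (0.87), a heparan sulphate proteoglycan. Hmcn2 and Phlda3 followed at 0.86, Oxt and Mfsd4a at 0.85, and Eng at 0.84. Rab6b was 10.37 ± 0.04 in DKO and 10.62 ± 0.12 in WT (SD, n = 5 each). It was highest in WT replicate 5, at 10.81, which the ranking by the members' mean deviation favours. Without WT replicates 4 and 5 its r with the members was 0.49, and Oxt, which encodes the neuropeptide oxytocin, then had 0.78 and Sdc1 -0.28. Closest to Nr4a1 alone were Sdc1 (0.91), Rcn1 (0.89) and Rps6kl1 (0.88), and closest to Junb were Snx8 (0.98), Bri3 (0.98) and Tusc1 (0.97), whose r was 0.87, 0.94 and 0.9 in the same order without WT replicates 4 and 5. These ranks describe 10 arrays and had no test.

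Activity-regulated genes outside the 8 members were taken from lists written with earlier results known. Among all named genes 60.4% had a lower mean in DKO, and limma called 0.00763% of all probe sets. Of 20 further immediate early transcription factors and related factors 15 were measured. Of these 14 had a lower mean in DKO, with a median difference of -0.07 and 0 called by limma. Their median difference was -0.26 among animals under 1000 and 0.0 among animals over 1000. Fosl1, a FOS-related AP-1 subunit, had the highest mean correlation with the members, at 0.57, and was 6.08 ± 0.07 in DKO and 6.11 ± 0.27 in WT (SD, n = 5 each). Btg2, an antiproliferative factor, followed at 0.51, with a genotype difference of -0.05. Crem, whose inducible product ICER represses CRE-driven transcription, was at the other end of the list with a mean correlation of -0.56, and was 6.14 ± 0.02 in DKO and 5.94 ± 0.14 in WT (SD, n = 5 each), the only one of the 15 with a higher mean in DKO. Leaving out WT replicates 4 and 5, the mean correlations were 0.18 for Fosl1, 0.08 for Btg2 and -0.08 for Crem.

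The paralogs of the members, picked here for their relation and after their values were seen, differed among themselves. Fosl2, another FOS-related subunit, was 8.23 ± 0.16 in DKO and 8.5 ± 0.16 in WT, with differences of -0.26 under 1000 and -0.28 over 1000. Nr4a2, a nuclear receptor needed for dopamine neurons, was 9.12 ± 0.18 in DKO and 9.27 ± 0.28 in WT, at -0.08 under 1000 and -0.2 over 1000 (SD, n = 5 each for both genes). Their mean correlations with the members were 0.07 and 0.04, close to the median of 0.02 over all other named genes. Jund, the third JUN gene, was at -0.47 under 1000 and 0.2 over 1000.

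Effector genes, whose products act at synapses or in signalling, had 20 of 28 measured, with a median difference of -0.05. Of the 20, 13 had a lower mean in DKO, as did 60.4% of all named genes. Limma called 0 of them, against 0.00763% of all probe sets. The effectors' mean correlation with the members was above 0 for 16 of 20, with a median of 0.23, against 52.7% above 0 among all other named genes. Dusp1, a phosphatase that switches off MAP kinases, was 9.22 ± 0.12 in DKO and 9.4 ± 0.26 in WT (SD, n = 5 each), with a mean correlation of 0.58, and Trib1, a pseudokinase, had the same mean correlation and a difference of -0.03. Rgs2, a regulator of G-protein signalling, had the lowest, at -0.23, with a difference of 0.06. Without WT replicates 4 and 5 the mean correlation of Dusp1 was 0.02, that of Trib1 0.2 and that of Rgs2 0.15.

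Cell type markers were set beside the members' levels and their mean deviation. Of the 10 lists, the meninges and fibroblast list (4 of 8 measured) was at 8.14 to 8.27 in DKO and 8.3 to 8.42 in WT arrays. All DKO arrays thus lay below all WT arrays, as for 0.754% of single named genes. Its r with the members' mean deviation was 0.13. The choroid plexus and ependyma list (5 of 8 measured) ran against the members' mean deviation, at r = -0.79 over the 10 arrays. Its level ranged from 6.33 to 7.87 in DKO and from 6.08 to 7.79 in WT arrays, with the lowest level in WT replicate 5. The microglia list (7 of 8) was at r = -0.65, from 6.63 to 6.79 in DKO and from 6.6 to 6.97 in WT arrays. Neuron markers (6 of 8) were at 0.21, from 9.85 to 10.26 in DKO and from 9.93 to 10.21 in WT arrays. The other lists had r between -0.46 (astrocyte and radial glia, 5 of 8 measured) and 0.45 (oligodendrocyte lineage, 3 of 7 measured). Correlations of these lists without WT replicates 4 and 5 are not given. The part of these cell types in the levels of the immediate early genes was not tested.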

How the data were processed

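Total RNA of dissected forebrain was hybridised to exon arrays, 1 per animal. The deposited values are log2 expression per probe set, made by the authors; the submitters' processing notes name RMA, Affymetrix Expression Console and build mm8, without versions. Whether probe sets stand for exons or genes was not stated. Values are rounded to 2 decimals. The number of arrays limits the precision.

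Gene symbols come from the platform annotation, updated by gene identifier to the RefSeq table of GRCm38.p6, which differs from mm8 and served for names, chromosomes and promoter windows. Of 65529 probe sets 15419 carried 1 symbol, 961 several and 49149 none, and 15071 matched the table. Each member had 1 such probe set, whose chromosome matched that of its neighbours in identifier order. Other genes were represented by the probe set with the highest mean. Egr3 and Egr1 have no promoter shown.

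Differences and their standard errors were fitted by limma 3.58.1 (R 4.3.3; lmFit, then eBayes) on genotype alone, unfiltered, and Benjamini-Hochberg adjustment over all probe sets (threshold 0.05). Correlations used values centred within each genotype over 10 arrays. For single pairs, all 14400 permutations within genotypes were enumerated (exact, two-sided), with Benjamini-Hochberg adjustment over 28 pairs. The smallest p these allow is 6.94e-05. The fit on genotype alone and the correlations were tested on simulated data. The fits with animal number as a term were not.

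The members, lists and tests were chosen with earlier results of these data known. Named genes were the members, the 8 genes closest to the members' mean deviation, the 3 closest to Nr4a1 and to Junb, and from each list the 2 highest and the 1 lowest by mean correlation with the members. Predicted genes, receptors of smell, small RNAs and sex-linked genes were left out of that ranking. Animal numbers, from the sample titles, were split at 1000. The lists were 5 of activity-regulated, upstream, repressor and decay, and stress genes, and 10 of tissue and cell type markers. Replicates are separate animals from 5 littermate pairs, which the tests do not use because the labels do not name them. Alternatives were other normalizations, filters, eBayes settings, blocks by animal number, rank correlation, removal of a shared component and leaving out arrays.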

Additional observations from a re-analysis of the deposited data

How the results depend on the processing

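The median difference of the 8 members between DKO and WT stayed below 0 under all 17 alternatives, from -0.28 to -0.1, and lay between -0.28 and -0.11 when single arrays were left out. Of 136 recomputed differences of single members, 135 kept their direction; the exception was Fos, at 0.03 without WT replicates 4 and 5. Blocks by animal number, and averaging over the single probe set of a member, leave these differences as they are by construction. They are part of the counts above and carry no information there. The labels give no replicate number shared by the genotypes. With the nearest animal number as a replicate block, 2 probe sets were called in place of 5; deviations of nearest-number animals correlated at 0.162 to 0.323 in 4 pairs and at -0.032 in 1, and 3 of 5 WT animals correlated best with their nearest-number DKO animal. Not every pair passed 0.1, so the numbers were not taken as pairs, although litter pairs exist. The count was 3 among probe sets with 1 symbol, 1 at a threshold of 0.01, and 1 to 6 without single arrays, where it was 1 without WT replicate 1, 2, 4 or 5 or DKO replicate 1, 4 or 5.

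The median correlation of 0.51 was 0.36 after median centring and 0.42 by Spearman, and 0.31 to 0.57 without single arrays. It turned to -0.07 when centred within genotype and number range and to -0.19 without WT replicates 4 and 5, a setting chosen after the data were seen. Removing the first principal component of the named genes, which held 33.7% of their variance and was led by WT replicate 4, gave 0.54. The correlation of Nr4a1 and Junb was 0.71 to 0.96 without single arrays and -0.26 within genotype and number range. Within animals under 1000 the members' median difference was -0.48 to -0.22 without single arrays, and within animals over 1000 it was -0.14 to -0.06, and -0.14 after quantile normalization or median centring. For the members' median difference over all arrays, a change counted as a move beyond the spread when it exceeded the SD between arrays (0.146 for the members' mean). For the median correlation the limit was the SD over single omissions (0.0717). Within the number ranges smaller changes counted as moves, such as -0.14 in place of -0.1 over 1000. The fit with number range as a term was also added after the values were known. Each gene had 1 probe set, so averaging its probe sets changed nothing. The causes were not tested.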

Other observations

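Among all named genes 60.4% had a lower mean in DKO, and limma called 0.00763% of all probe sets. These shares stand beside the counts of each list below. Of 25 listed genes upstream of the immediate early response 13 were measured, 9 of them with a higher mean in DKO. They had a median difference of 0.1, 0 called by limma, and a median correlation of -0.15 with the members. Crtc1, a coactivator of CREB, had the highest mean correlation, at 0.23, and was 9.12 ± 0.09 in DKO and 9.2 ± 0.06 in WT (SD, n = 5 each). Mef2c, a transcription factor of cortical neurons, followed at 0.18 and was 11.16 ± 0.16 in DKO and 11.04 ± 0.23 in WT. Cacna1c, the pore of an L-type calcium channel, had the lowest, at -0.37, and a difference of 0.11. These correlations were 0.05, 0.07 and -0.09 without WT replicates 4 and 5. The list was low in WT replicate 4, with a mean deviation of -0.29 from the WT mean.

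Repressors and mRNA decay factors had 8 of 12 measured, 5 with a higher mean in DKO, a median difference of 0.07 and 0 called. Zfp36l2, which binds AU-rich elements and promotes decay, was 8.15 ± 0.16 in DKO and 8.35 ± 0.16 in WT (SD, n = 5 each), at -0.25 among animals under 1000 and -0.17 among those over 1000, with a mean correlation of 0.27 with the members. Nab1, a corepressor of EGR proteins, differed by -0.15, with a mean correlation of 0.25. Tnrc6a, a partner of Argonaute proteins, was at 0.09 and -0.42 for the same quantities. The correlations were 0.0 for Zfp36l2, 0.13 for Nab1 and -0.1 for Tnrc6a without WT replicates 4 and 5.

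Heat shock and stress genes had 8 of 14 measured, 5 with a lower mean in DKO, a median difference of -0.02 and 0 called. Hsp90aa1, whose name is out of place in identifier order and therefore uncertain, had the highest mean correlation with the members (0.49). Hspb1, a small heat shock protein, was at 0.42 and was 5.24 ± 0.29 in DKO and 5.33 ± 0.35 in WT (SD, n = 5 each). Hspa1a, the inducible HSP70, was at -0.19 and was 4.8 ± 0.23 in DKO and 4.85 ± 0.11 in WT. The means of Hspb1 and Hspa1a were low, near or below the array medians of 5.05 to 5.24. Leaving out WT replicates 4 and 5 gave 0.15 for Hsp90aa1 and turned the direction for Hspb1 (-0.06) and Hspa1a (0.01). The list's mean deviation was highest in WT replicate 5, at 0.18, the array in which 7 of the 8 immediate early factors were highest. The lists of further transcription factors (0.17) and of effectors (0.12) were also highest in that array. In DKO replicate 1 the stress list was at 0.12 and the members' mean deviation at 0.0.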
